A study of Rattus norvegicus with 12 samples.

Results

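The 9 matricellular protein genes considered here are Postn, Tnc, Thbs1, Thbs2, Thbs4, Spp1, Sparc, Ccn1 and Ccn2, chosen by name. Probes were taken by their platform annotation symbol, in which the CCN genes already carried their present names. Of the 22523 probes on the array 7 belonged to the set, with 1 probe each for 7 of the 9 genes (ILMN_1360313 for Postn, ILMN_1650153 for Thbs2, ILMN_1350042 for Thbs4, ILMN_1352642 for Spp1, ILMN_1356384 for Sparc, ILMN_1372919 for Ccn1 and ILMN_1364113 for Ccn2). Tnc and Thbs1 were not measured under those symbols, and only their promoters are considered here. All 7 probes passed the filter on dim probes (detected, at a p under 0.05, on 4 or more of the 12 arrays), as did 10234 probes in all.

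Matricellular proteins are secreted into the extracellular matrix, where they act on cell receptors, growth factors and matrix enzymes and do little to build the scaffold itself. In the heart they are made by fibroblasts, vascular cells, macrophages and, for some members, cardiomyocytes. Many are scarce in the quiet adult ventricle and are known to be induced by pressure load, infarction and inflammation.

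Expression had been measured on bead arrays in 12 hearts of Sprague-Dawley rats, an outbred stock, with 4 hearts in each of 3 groups. The groups were hearts under phasic systolic overload (SO), an added load while the ventricle contracts, hearts under phasic diastolic overload (DO), an added load while it fills, and control hearts (CN) with no loading in either phase. The series title sets the question of whether the phase of a load on the left ventricle matters for gene expression. The animals' age and sex, the duration of loading and the chamber sampled are not given in the labels used here. The labels also do not state that each heart came from a separate animal, so the p-values cover only differences among these 12 samples, some of which may be technical. Cardiomyocyte markers checked the tissue label, with Tnnt2 (14.79 to 14.92), Tnni3 (14.00 to 14.70) and Myh6 (14.44 to 14.70 in log2 intensity) detected in all 12 hearts. The atrial marker Myl7, the atrial light chain of myosin, was also detected in all 12, over a range of 9.33 to 12.24.

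Values below are normalized log2 intensities, on which a difference of 1 is a doubling, and they are not compared between probes. No member passed the test in any comparison (limma, Benjamini-Hochberg over all 10234 probes), and percent passing over all probes was 0.0 in each of the 3 comparisons. Under systolic against diastolic overload, 6 of the 7 members had a lower mean, against 47.8% of all tested probes, and the members' median log2 difference was −0.41, against 0.00699 over all probes. The 1 member with a higher mean was Spp1, as were 52.2% of all probes. Postn (−1.32) and Ccn2 (−0.75) had the 2 largest differences and were the 2 members with an unadjusted p under 0.05, both of them lower, where 6.32% of all probes had such a p and 2.81% had one with a lower mean. Groups of hearts overlapped for all 7 members, while they did not overlap for 3.13% of all probes.

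**Figure D1:**
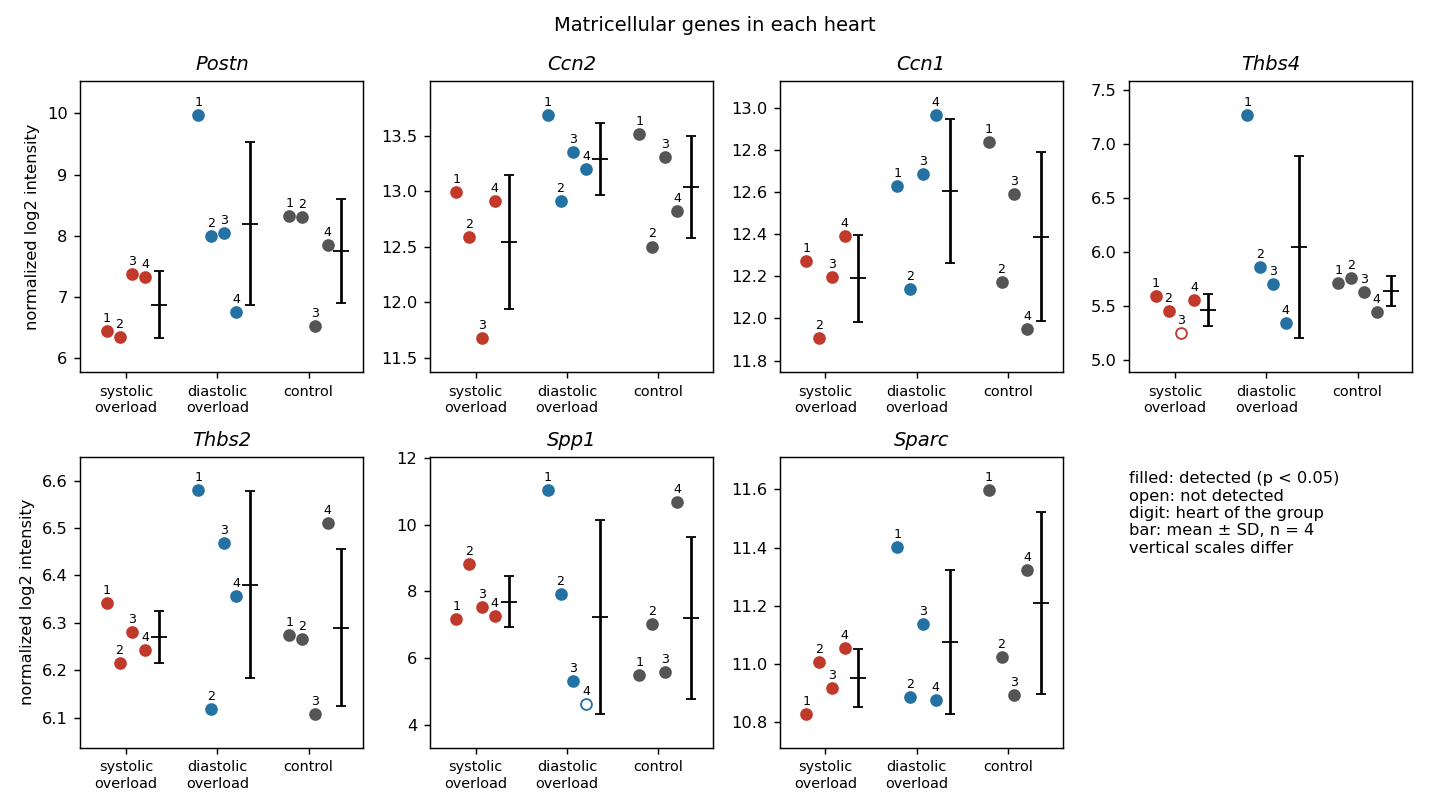
Normalized log2 intensity (vertical axis, scales differ between panels) of the 7 measured genes in each of 4 systolic overload, 4 diastolic overload and 4 control hearts, with the mean and SD of each group beside the points. Diastolic overload heart 1 was highest of all hearts for Postn (9.98), Ccn2 (13.69), Thbs4 (7.27), Thbs2 (6.58) and Spp1 (11.03).

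One heart carried a large part of the set's pattern. Diastolic overload heart 1 had the highest value of all 12 hearts for 5 of the 7 members, namely Postn, Ccn2, Thbs2, Thbs4 and Spp1. Its mean over the 7 members lay 1.31 above the 12-heart mean, next to 0.45 in control heart 4, the second highest. It was also first for the fibrillar matrix genes named below (0.75) and for markers of activated fibroblasts (0.64, 3 of 6 tested) and macrophages (0.57). These scores are mean log2 differences from the 12-heart mean. Likewise it was first for smooth muscle and pericyte markers (0.39) and for genes responsive to YAP, SRF or TGF-beta (0.33). The same held for receptors (0.32), fibroblast markers (0.24) and upstream regulators (0.15). It was not first for other matricellular proteins (0.18) or for lymphocyte (0.40), atrial (0.11), cardiomyocyte (−0.07) and endothelial (−0.28) markers. The part of these cell types in the result was not tested. In RNA from heart tissue, fewer cells of a type and less RNA per cell cannot be told apart.

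**Figure D2:**
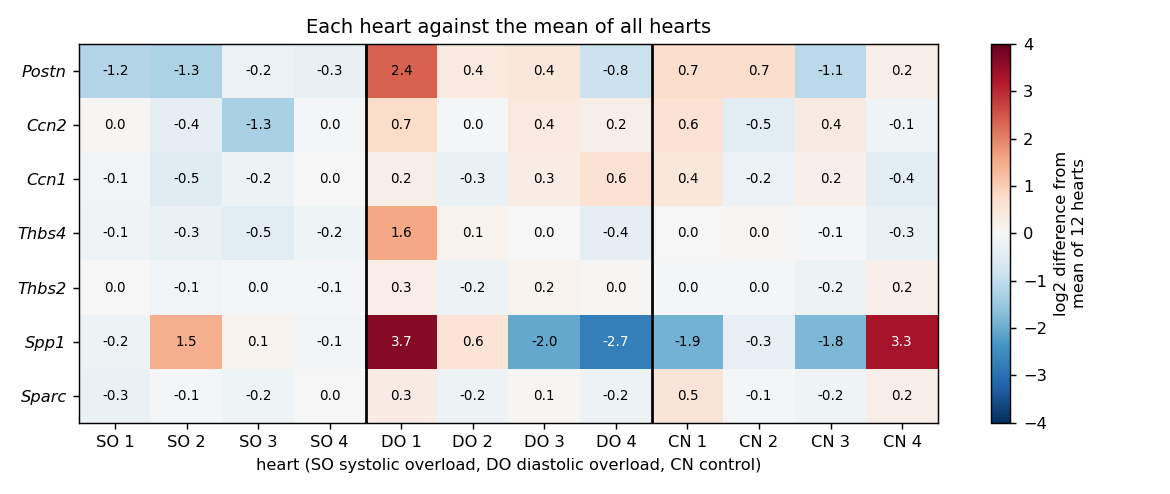
Log2 difference of each heart (columns, grouped as systolic overload, diastolic overload and control) from the mean of all 12 hearts for the 7 genes (rows), with red above and blue below the mean. Spp1 had the widest span, with 4.63 in diastolic overload heart 4 and 11.03 in diastolic overload heart 1. The 4 systolic hearts lay below the mean for Postn, Thbs4, Sparc and Ccn1, for Ccn1 only just in systolic heart 4.

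Ccn2 (connective tissue growth factor) and Ccn1 are members of the CCN family, which bind integrins and heparan sulphate proteoglycans. Both are standard readouts of YAP and TAZ, co-activators that respond to mechanical strain and bind DNA through TEAD factors. Ccn2 stood at 12.996, 12.59, 11.67 and 12.91 in systolic overload hearts 1 to 4, at 13.69, 12.92, 13.35 and 13.20 in diastolic overload hearts 1 to 4, and at 13.52, 12.50, 13.31 and 12.82 in control hearts 1 to 4. All 4 systolic hearts lay below the diastolic mean, and 3 of the 4 lay below every diastolic heart. The systolic hearts averaged 12.54 ± 0.61 and the diastolic hearts 13.29 ± 0.32 (SD, n = 4 each), a log2 difference of −0.75 ± 0.29 (SE, 95% interval −1.38 to −0.12), or 0.595-fold. It ranked 324th by p among the 10234 probes and did not pass (limma adjusted p = 0.74, unadjusted p = 0.024). Without systolic heart 3, the lowest of all, the difference was −0.46, and without diastolic heart 1 it was −0.62. Against control, at 13.04 ± 0.46, Ccn2 differed by −0.50 ± 0.29 under systolic overload (limma adjusted p = 0.83) and by 0.25 ± 0.29 under diastolic overload (limma adjusted p = 0.99). Diastolic overload minus control gave 0.07 without control heart 2, 0.12 without diastolic heart 1 and 0.01 with arrays scaled to their medians. Systolic overload differed from control by −0.21 without systolic heart 3.

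Ccn1, known for promoting adhesion and senescence of fibroblasts, stood at 12.27, 11.90, 12.19 and 12.39 in systolic overload hearts 1 to 4, at 12.63, 12.14, 12.68 and 12.97 in diastolic overload hearts 1 to 4, and at 12.84, 12.17, 12.59 and 11.95 in control hearts 1 to 4. The 4 systolic hearts lay below the diastolic mean, and diastolic heart 2 fell among them. Systolic minus diastolic overload was −0.41 ± 0.21 (SE, 95% interval −0.86 to 0.03), 0.750-fold, and did not pass (limma adjusted p = 0.85). Control hearts spread over 0.89 in log2, more than either difference from control, which was −0.20 ± 0.21 under systolic overload and 0.22 ± 0.21 under diastolic overload. With 1 heart left out, these ranged from −0.34 to −0.05 under systolic overload, nearest to 0 without control heart 1, and from 0.07 to 0.37 under diastolic overload, nearest to 0 without control heart 4.

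The promoters of 4 members are shown because these had the smallest p between the 2 loads, Ccn2, Postn, Ccn1 and Thbs4, and because the CCN promoters are the textbook sites of TEAD binding. Each is the 250 bases before the annotated start, from RefSeq on build GRCr8, 5′ to 3′ on the gene's strand. Capitals mark GGAATG, the TEAD recognition sequence, or its reverse complement CATTCC. Ccn2 lies on the minus strand (chr1:22624615-22624864), Ccn1 on the minus strand (chr2:237225690-237225939), Postn on the plus strand (chr2:140677811-140678060) and Thbs4 on the minus strand (chr2:25760346-25760595).
Ccn2: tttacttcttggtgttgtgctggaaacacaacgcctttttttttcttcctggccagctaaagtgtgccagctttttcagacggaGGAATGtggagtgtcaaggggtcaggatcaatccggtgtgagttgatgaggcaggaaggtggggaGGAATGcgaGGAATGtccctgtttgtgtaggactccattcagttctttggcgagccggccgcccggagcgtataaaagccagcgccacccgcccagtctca
Ccn1: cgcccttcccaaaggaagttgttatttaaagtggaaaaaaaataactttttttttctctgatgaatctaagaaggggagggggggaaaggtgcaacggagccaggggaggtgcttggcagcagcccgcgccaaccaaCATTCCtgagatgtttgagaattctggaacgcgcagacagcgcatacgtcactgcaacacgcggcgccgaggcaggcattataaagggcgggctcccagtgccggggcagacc
Postn: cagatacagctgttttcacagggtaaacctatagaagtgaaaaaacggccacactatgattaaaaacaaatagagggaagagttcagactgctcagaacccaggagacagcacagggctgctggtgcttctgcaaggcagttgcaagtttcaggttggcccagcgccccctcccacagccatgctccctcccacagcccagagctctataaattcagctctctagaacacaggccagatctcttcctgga
Thbs4: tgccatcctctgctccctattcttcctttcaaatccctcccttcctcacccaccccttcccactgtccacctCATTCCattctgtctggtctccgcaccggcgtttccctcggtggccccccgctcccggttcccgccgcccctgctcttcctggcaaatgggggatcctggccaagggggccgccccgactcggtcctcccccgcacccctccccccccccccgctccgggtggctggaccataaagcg

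Ccn2 held GGAATG at 3 positions, starting 166, 101 and 92 bases before the start. Ccn1 held it at 1 position on the other strand, reaching back to 113 bases, and so did Thbs4 at 178 bases, while the Postn window had no match. Over both strands the motif occurred in 5 of the 8 member promoters available and in 12.1% of 33469 promoters of the same length. A TATA box (TATAAA) was found at 31 bases in Ccn2, 34 in Ccn1 and 44 in Postn, and in 12.9% of all promoters. The SMAD3 sequence CAGACA was present in 4 of the 8, Tnc among them (17.2% of all), and the AP-1 sequence TGANTCA in 0 of the 8 (6.34% of all). No matches of these motifs overlapped. Such matches describe the letters in the window, and no binding was measured here.

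Postn encodes periostin, a secreted partner of collagen that is known as a marker of activated cardiac fibroblasts. It stood at 6.45, 6.35, 7.38 and 7.33 in systolic overload hearts 1 to 4, at 9.98, 8.00, 8.05 and 6.76 in diastolic overload hearts 1 to 4, and at 8.33, 8.31, 6.53 and 7.85 in control hearts 1 to 4. As raw intensity, systolic hearts read 128.3 to 221.1, diastolic hearts 151.4 to 1114 and control hearts 151.9 to 477.4. Above every systolic heart lay 3 of the 4 diastolic hearts and 3 of the 4 control hearts, with diastolic heart 4 and control heart 3 as the exceptions.

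Systolic overload averaged 6.88 ± 0.55 for Postn and diastolic overload 8.20 ± 1.33 (SD, n = 4 each). The log2 difference of −1.32 ± 0.58 (SE, 95% interval −2.57 to −0.07), or 0.400-fold, did not pass (limma adjusted p = 0.76, unadjusted p = 0.040). Without diastolic heart 1 the difference was −0.73. Systolic overload differed from control, at 7.76 ± 0.84, by −0.88 ± 0.58 (limma adjusted p = 0.87), with all 4 systolic hearts below the control mean. It was −1.29 without control heart 3. Diastolic overload differed from control by 0.44 ± 0.58 (limma adjusted p = 0.99), by −0.15 without diastolic heart 1, which turned its direction, by 0.03 without control heart 3 and by 0.92 without diastolic heart 4.

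**Figure D3:**
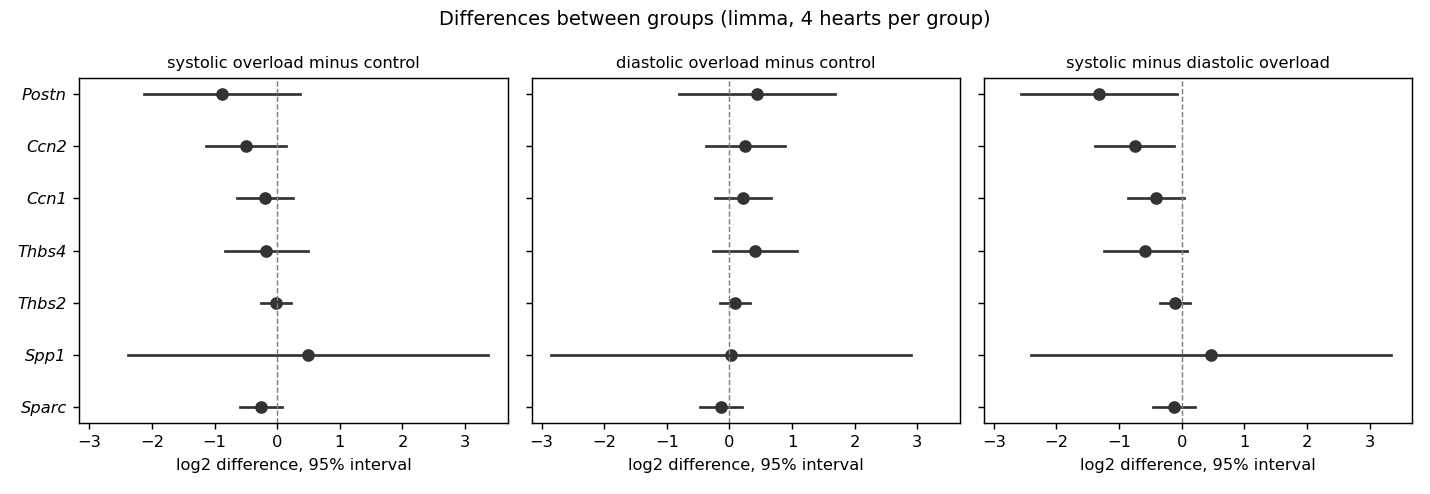
Log2 difference (horizontal axis) with its 95% interval from the limma fit for the 7 genes in systolic overload minus control, diastolic overload minus control and systolic minus diastolic overload, with 4 hearts per group. The interval excluded 0 for Ccn2 and Postn in systolic minus diastolic overload before adjustment, and the Spp1 intervals were the widest, from −2.38 to 3.37 in systolic overload minus control.

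Thrombospondins bind calcium and, depending on the member, CD36, CD47 and integrins. Thbs4, which is known to be induced in the loaded heart, stood at 5.59, 5.45, 5.25 and 5.55 in systolic overload hearts 1 to 4, at 7.27, 5.86, 5.70 and 5.34 in diastolic overload hearts 1 to 4, and at 5.71, 5.76, 5.63 and 5.44 in control hearts 1 to 4. Apart from diastolic heart 1, all hearts lay between 5.25 and 5.86, and Thbs4 did not reach the detection limit in systolic heart 3. Diastolic minus control was 0.41 ± 0.31 (SE, limma adjusted p = 0.96) with that heart and −0.00094 without it. Systolic minus diastolic overload was −0.58 ± 0.31 (limma adjusted p = 0.86) with it and −0.17 without it. Against control, systolic overload differed by −0.17 ± 0.31 (limma adjusted p = 0.97), with 4 of 4 systolic hearts below the control mean. The values behind that count lay near the detection limit, with a detection p of 0.015 to 0.058 in systolic and 0.012 to 0.023 in control hearts.

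Thbs2, an inhibitor of angiogenesis that also regulates collagen fibril assembly, had the smallest spread of the set. It ranged from 6.21 to 6.34 (median 6.26) in systolic overload, from 6.12 to 6.58 (median 6.41) in diastolic overload and from 6.11 to 6.51 (median 6.27) in control hearts. Its difference from control was −0.02 ± 0.11 under systolic overload (SE, 95% interval −0.26 to 0.22, limma adjusted p = 0.98) and 0.09 ± 0.11 under diastolic overload (95% interval −0.15 to 0.33, limma adjusted p = 0.99). Systolic minus diastolic overload was −0.11 ± 0.11 (limma adjusted p = 0.97). Leaving out diastolic heart 1 gave −0.04, and diastolic overload minus control was 0.02 without it. The intervals against control lay within 0.835-fold and 1.26-fold, the narrowest of the 7 members. Thbs2 was detected in all 12 hearts but was dim, at raw intensities of 122.7 to 227.8 beside array medians of 86.3 to 115.5. The narrow intervals thus do not by themselves show that its expression was unchanged.

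Spp1 encodes osteopontin, a secreted ligand of integrins and CD44 made in the heart largely by macrophages and also by fibroblasts and stressed cardiomyocytes. It stood at 7.16, 8.83, 7.52 and 7.26 in systolic overload hearts 1 to 4, at 11.03, 7.93, 5.33 and 4.63 in diastolic overload hearts 1 to 4, and at 5.49, 7.04, 5.59 and 10.67 in control hearts 1 to 4. Diastolic heart 1 and control heart 4 stood far above the other 10 hearts, with raw intensities of 2250 and 2900 against at most 436.0 elsewhere. In diastolic heart 4 Spp1 was not detected. Among the 11 hearts in which Spp1 was detected, the highest was 52.0-fold above the lowest. Macrophage marker scores in the 2 high hearts were 0.57 in diastolic heart 1, the highest of all, and −0.13 in control heart 4. The latter was below the 12-heart mean but the highest of the control hearts (−0.39 to −0.13). The part of macrophages in Spp1 was not tested.

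The group means of Spp1 were 7.69 ± 0.77 in systolic overload, 7.23 ± 2.90 in diastolic overload and 7.20 ± 2.42 in control hearts (SD, n = 4 each). No difference could be resolved, with 0.50 ± 1.33 for systolic overload minus control (SE, limma adjusted p = 0.97) and 0.03 ± 1.33 for diastolic overload minus control (limma adjusted p = 1.00). Systolic minus diastolic overload was 0.47 ± 1.33 (limma adjusted p = 0.99). The interval of systolic overload minus control ran from 0.192-fold to 10.4-fold. Leaving out control heart 4 gave 1.63 for systolic overload and 1.19 for diastolic overload, each minus control. Without diastolic heart 1, diastolic overload minus control was −1.23 and systolic minus diastolic overload was 1.73, against 0.47 with it.

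Sparc (osteonectin) is a collagen chaperone of the matrix that is made steadily by cardiac fibroblasts and endothelial cells. It stood at 10.83, 11.01, 10.92 and 11.05 in systolic overload hearts 1 to 4, at 11.40, 10.89, 11.14 and 10.88 in diastolic overload hearts 1 to 4, and at 11.60, 11.03, 10.89 and 11.32 in control hearts 1 to 4. Systolic hearts lay within 0.23 of one another and all below the control mean. Systolic overload minus control was −0.26 ± 0.16 (SE, limma adjusted p = 0.84) and diastolic overload minus control −0.13 ± 0.16 (limma adjusted p = 0.99). Systolic minus diastolic overload was −0.12 ± 0.16 (limma adjusted p = 0.99). It was −0.01 without diastolic heart 1, and diastolic overload minus control was then −0.24. Without control heart 1, systolic overload minus control was −0.13 and diastolic overload minus control −0.0038. Sparc was the 1 member with a lower mean under diastolic overload than in control.

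Against control, then, systolic overload had a lower mean for 6 of 7 members (48.5% of all tested probes) and a higher one for Spp1 (51.5%), with a median of −0.20 against 0.00498 over all probes. No member had an unadjusted p under 0.05, against 5.79% of probes, or 2.62% counting lower means alone, and groups overlapped for all 7, against non-overlap for 3.5% of probes. Such a p was reached by Postn and Sparc without control heart 3 (by 722 of 10117 probes in all). Ccn2 reached it without control heart 2 (500 of 10120 probes). With arrays scaled to their medians Ccn2, Ccn1 and Sparc did (1198 of 10234 probes), where the median of all probes was −0.17. Diastolic overload had a higher mean for 6 of 7 (49.2% of all tested probes) and a lower one for Sparc (50.8%), with a median of 0.22 against −0.0025 over all probes, and 0 members had an unadjusted p under 0.05 (5.49% of probes, 3.07% with a lower mean) or separate groups (2.78% of probes). Of the 7, 3 were higher without diastolic heart 1, with a median of −0.0009. Both comparisons share the control hearts. Systolic against diastolic overload uses no control mean, but its p-values draw on the spread among control hearts too. Without diastolic heart 1 its median was −0.17 and 6 of 7 members still had a lower mean. In that setting 0 members had an unadjusted p under 0.05. The median of systolic minus diastolic overload was farther from 0 than that of systolic overload minus control with all hearts (−0.41 against −0.20). Without diastolic heart 1 it was not (−0.17 against −0.20). With median scaling the 2 were −0.38 and −0.40, beside medians over all probes of 0.014 and −0.17.

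Members differed in their spread between hearts of a group. The SD within groups was 2.23 for Spp1, which exceeded that of 99.99% of tested probes, 0.96 for Postn (99.7%), 0.50 for Thbs4 (97.2%) and 0.48 for Ccn2 (96.6%). It was 0.33 for Ccn1 (89.2%), 0.24 for Sparc (72.0%) and 0.15 for Thbs2 (33.1%). Dim probes can spread more, so each was also set beside probes within 0.5 of its own mean. Among 1377 such probes Postn exceeded 99.5%, among 259 such probes Ccn2 exceeded 99.6%, and among 1800 such probes Thbs2 exceeded 13.2%. The 0.50 of Thbs4 rested largely on diastolic heart 1 (7.27). Its SD was 0.85 in diastolic overload, 0.15 in systolic overload and 0.14 in control hearts.

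**Figure D4:**
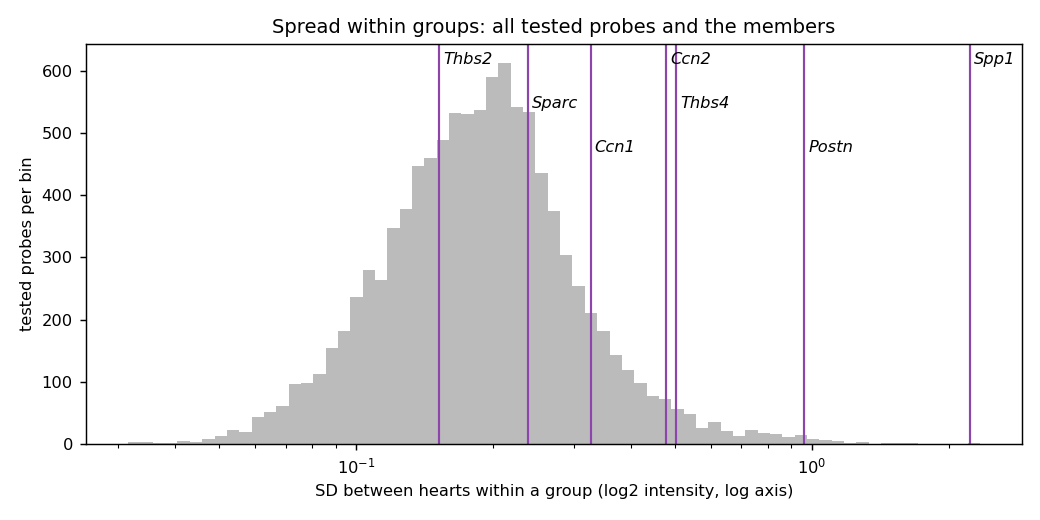
Histogram of the SD between hearts within a group (horizontal axis, log2 intensity on a log scale) over the 10234 tested probes (vertical axis, probes per bin), with vertical lines at the 7 genes. Spp1 (2.23) and Postn (0.96) lay in the far right tail and Thbs2 (0.15) left of the peak.

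Variation within groups was compared between members, pair by pair. Deviations from the group mean were correlated over the 12 hearts for all 21 pairs of members. In 17 pairs r was above 0, and the share over pairs of other genes was not computed. No pair passed after adjustment over the 21 (permutation within groups, 100000 resamples, two-sided). By Pearson's r, the smallest p was that of Sparc and Postn (r = 0.71, permutation p = 0.034, adjusted p = 0.34; rho = 0.71, permutation p = 0.028, adjusted p = 0.29), with r = 0.69 without control hearts 1 and 3, the 2 farthest from the median of Sparc. Ccn2 and Ccn1 had r = 0.52 (permutation p = 0.089, adjusted p = 0.36; rho = 0.64, permutation p = 0.048, adjusted p = 0.34), and r = 0.75 without control heart 2 and systolic heart 3. Postn and Thbs4 had r = 0.75 (permutation p = 0.053, adjusted p = 0.34; rho = 0.46, permutation p = 0.17, adjusted p = 0.52), which rested on diastolic hearts 1 and 4, without which r was −0.02.

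Ccn1 and Spp1 had negative coefficients that did not pass, with r = −0.67 (permutation p = 0.064, adjusted p = 0.34) and rho = −0.78 (permutation p = 0.011, adjusted p = 0.24), the smallest p by Spearman's rho. Without control heart 4 and diastolic heart 2 r was −0.56, and without diastolic heart 1 it was −0.90 (permutation, adjusted p = 0.0099). No pair passed with any other single heart left out. The settings were chosen after seeing the data, and the adjustment covers the member pairs but not the choice of heart. That p therefore does not establish a link between Ccn1 and Spp1.

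**Figure D5:**
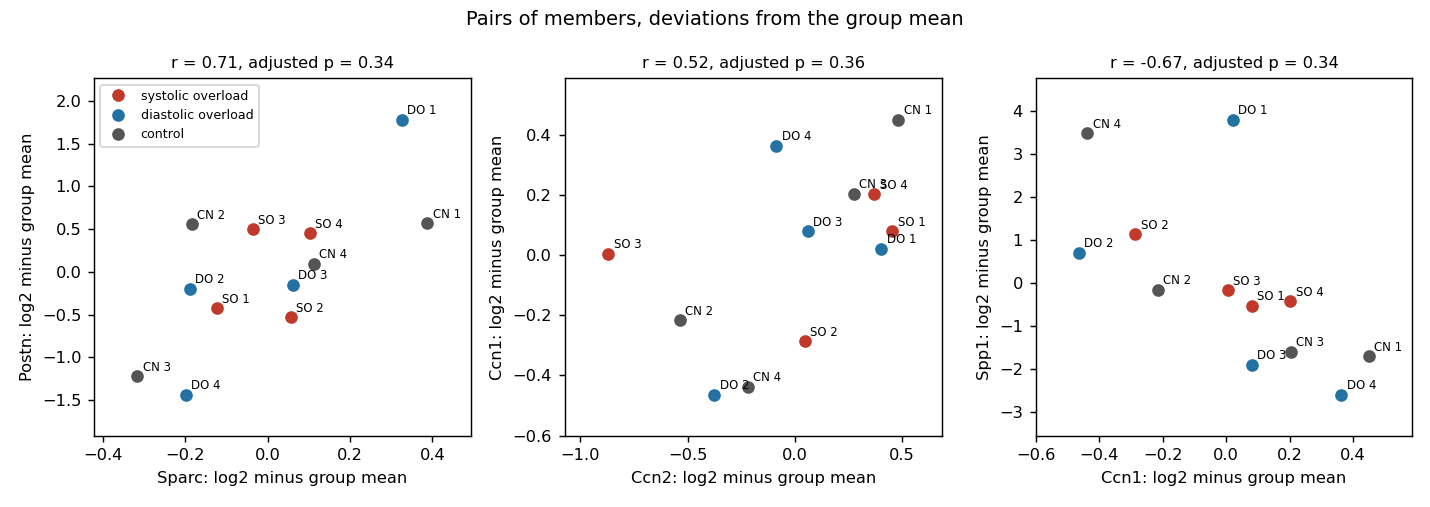
Deviation of each heart from its group mean (log2 intensity on both axes) for Sparc and Postn, Ccn2 and Ccn1, and Ccn1 and Spp1, with systolic overload, diastolic overload and control hearts in 3 colours. Pearson's r was 0.71, 0.52 and −0.67 over the 12 hearts, and none of the 3 passed after adjustment.

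The genes outside the set whose deviations most resembled each member's were found by Pearson's r over the same 12 hearts and 7341 named genes, as a description with no test. For Postn these were Rps9, a ribosomal protein (r = 0.97, over a range of 0.27 among hearts), and Col14a1, a fibril-associated collagen (r = 0.94, and 0.88 without diastolic heart 1). For Spp1 they were Myo1e, a class I myosin (r = 0.95), and Anpep, a surface aminopeptidase of myeloid cells and pericytes (r = 0.94), with r = 0.91 and 0.90 without diastolic heart 1. Ccn1 was most like Trib1, a pseudokinase (r = 0.90), and Noct, a gene of circadian rhythm (r = 0.89), and Ccn2 most like Gpx3, a secreted glutathione peroxidase (r = 0.90), and Ubn2 (r = 0.89). Sparc was most like Parg (r = 0.91) and Il17ra (r = 0.89), and Thbs2 most like Tbxas1, thromboxane synthase (r = 0.91), and Cenpk (r = 0.89). The likeness of Thbs4 to Nup54 and Ccdc50 (r = 0.89 each) was 0.68 and 0.16 without diastolic heart 1.

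Other genes of the same pathways were described by lists. Among other matricellular proteins, 8 of 14 were tested and none passed. Smoc2, a SPARC-related calcium-binding matrix protein, differed by −0.77 ± 0.14 (SE) under systolic overload and −0.87 ± 0.14 under diastolic overload, each minus control (limma adjusted p = 0.52 and 0.34). All 4 hearts of each load lay below all 4 controls. Groups did not overlap for 3.5% of all probes in systolic overload minus control and 2.78% in diastolic overload minus control. The list's median was −0.02 in both comparisons (−0.10 under diastolic overload without diastolic heart 1), and Smoc2's relative Fstl1 differed by −0.29 under systolic overload and by −0.31 in systolic minus diastolic overload. Tgfbi, a periostin relative, was next after Smoc2 in diastolic overload minus control (0.13), and Ogn, osteoglycin, next after Fstl1 in systolic minus diastolic overload (0.14).

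Receptors had 8 of 14 genes tested and none passed. In systolic minus diastolic overload 5 of 8 were lower (median −0.10), led by Itga5, the alpha chain of the fibronectin receptor, at 8.76 ± 0.17 and 9.21 ± 0.20 (SD, n = 4 each), −0.45 ± 0.18 (SE, limma adjusted p = 0.74). Every systolic heart lay below every diastolic heart for Itga5, where 3.13% of all probes had groups that did not overlap. Cd44, a receptor of osteopontin, differed by −0.23. Without diastolic heart 1, 3 of 8 receptors were lower and the median was 0.03. Against control, Itga5 (−0.28) and the integrin chain Itgb5 (−0.19) differed most under systolic overload, and Sdc4, a heparan sulphate proteoglycan (0.25), and Cd47, a thrombospondin receptor (−0.24), under diastolic overload.

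Fibrillar matrix genes, the binding partners of periostin, Sparc and thrombospondins, were lower in 10 of 12 in systolic minus diastolic overload (median −0.22), and none passed (limma). Col3a1, a chain of fibrillar collagen III, was at 9.16 ± 0.32 under systolic and 9.97 ± 0.61 under diastolic overload (SD, n = 4 each), −0.81 ± 0.32 (SE, limma adjusted p = 0.74). Its groups did not overlap, as for 3.13% of all probes, and Col8a1 differed by −0.52. There were 8 of 12 lower without diastolic heart 1 (median −0.12). Systolic overload minus control gave 10 of 12 lower (median −0.23), with Fn1, fibronectin, at −0.40 and Col1a2 at −0.36. Diastolic overload minus control gave 6 of 12 higher (median 0.02), with Col3a1 at 0.67 and Loxl1, a collagen and elastin cross-linking enzyme, at 0.39, and 2 of 12 higher without diastolic heart 1 (median −0.09).

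Regulators upstream of these genes, in the TGF-beta, angiotensin and Hippo pathways, had 10 of 16 tested and none passed. Tgfb1, a main inducer of Postn and Ccn2, was at 7.25 ± 0.30 under systolic and 7.81 ± 0.25 under diastolic overload (SD, n = 4 each), −0.56 ± 0.24 (SE, limma adjusted p = 0.76), and Smad7, a feedback inhibitor, differed by −0.31. Against control, Tgfb1 differed by 0.35 and Ltbp1, which stores latent TGF-beta, by −0.43 under diastolic overload, while Ltbp1 differed by −0.31 and the angiotensin receptor Agtr1a by −0.26 under systolic overload. Genes that respond to YAP, SRF or TGF-beta had 8 of 12 tested, none passed, and medians were −0.06, −0.02 and 0.01 in systolic overload minus control, diastolic overload minus control and systolic minus diastolic overload. Without diastolic heart 1 the median was −0.13 in diastolic overload minus control, with 1 of 8 higher in place of 4 of 8, and 0.11 in systolic minus diastolic overload, with 6 of 8 higher in place of 4 of 8. Ajuba, a partner of LATS kinases, differed by −0.15 under systolic and −0.19 under diastolic overload, each minus control. Tagln, a smooth muscle actin-binding protein, differed by 0.13 in systolic overload minus control, and Timp1 by 0.14 in diastolic overload minus control. The kinase gene Lats2, detected on only 5 of the 12 arrays, differed by 0.15 in systolic minus diastolic overload. No tested gene of this list differed by more than 0.24 in these comparisons, the largest being Timp1, an inhibitor of matrix proteases, at −0.24 in systolic minus diastolic overload.

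Markers of the cells that make these proteins were measured beside them. Of 8 fibroblast markers, all were tested, and mean scores over them ran from −0.12 to 0.17 in systolic overload, −0.23 to 0.24 in diastolic overload and −0.13 to 0.21 in control hearts. The diastolic upper end was heart 1, and the other 3 diastolic hearts lay between −0.23 and −0.12. In systolic minus diastolic overload 5 of 8 fibroblast markers were higher (median 0.07), and 8 of 8 without diastolic heart 1 (median 0.17). In diastolic overload minus control 6 of 8 were lower, and 7 of 8 without that heart (median −0.25). There 4 of the 8 had an unadjusted p under 0.05, as did 677 of 10096 probes, and none passed (limma). For macrophage markers (7 of 9 tested) scores ran from −0.11 to 0.29, −0.18 to 0.57 and −0.39 to −0.13 in the same order, and 7 of 7 markers had a higher mean in each load than in control (6 of 7 for diastolic overload without diastolic heart 1). In diastolic overload minus control 4 of the 7 macrophage markers had an unadjusted p under 0.05 (5.49% of all probes). It was 3 of 7 without diastolic heart 1, and none passed (limma). All 4 control hearts had lower macrophage scores than all 4 systolic hearts. Cardiomyocyte scores (6 of 7 tested) were 0.02 to 0.06, −0.07 to 0.14 and −0.14 to −0.03, so that systolic and control hearts did not overlap there either. Endothelial markers (5 of 8 tested) had scores of −0.28 to 0.05, −0.43 to 0.36 and −0.36 to 0.48 in that order, and 5 of 5 had a lower mean in each load than in control (4 of 5 for diastolic overload without diastolic heart 1). Smooth muscle and pericyte scores, from 2 of 6 markers, were −0.24 to 0.26, −0.12 to 0.39 and −0.24 to 0.08. Atrial marker scores, from 2 of 4 markers, ranged from −1.52 to 0.68, −1.16 to 1.88 and −0.47 to 1.52, and lymphocyte scores (4 of 6) from −0.45 to 0.15, −0.01 to 0.51 and −0.32 to 0.03. The part of these cells in the members' differences was not tested.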

How the data were processed

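The deposited raw table holds linear probe intensity, marked as not normalized, and a detection p-value beside each intensity, per the file headers. The authors' normalized intensity values were also deposited and served as an alternative, and their columns share the same quantiles. The sources used here do not name the software. Each of the 12 hearts had 1 array, with 9249 to 9931 probes detected and raw medians of 86.3 to 115.5. Probes were named from the platform annotation (13793 of 22523 with a symbol, 0 symbols changed when updated through RefSeq gene identifiers).

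Background correction and quantile normalization used neqc (limma 3.58.1, R 4.3.3; offset 16). Probes with detection p under 0.05 on at least 4 arrays were tested with lmFit and eBayes, with 1 mean per group over all 12 arrays and Benjamini-Hochberg adjustment within each of 3 contrasts at 0.05. A list score is the mean over its tested genes (brightest probe each) of the log2 intensity minus the 12-heart mean. The pipeline was checked on simulated data. Named genes were all members, the 2 genes per related list with the largest absolute difference in each contrast, and the 2 genes most correlated with each member. Members and lists were chosen with earlier results of these data known. Alternatives were other normalizations, offsets and filters, array weights, a replicate block and leaving out each array. The number of arrays limits the precision.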

Additional observations from a re-analysis of the deposited data

How the results depend on the processing

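No probe passed in any of the 3 comparisons under any alternative run (deposited normalized table, median scaling, offset 50, no filter, detection on all 12 arrays, array weights, replicate block, each array left out), 0 probes each, with smallest limma adjusted p from 0.098. At an unadjusted p under 0.05 the counts were 593, 562 and 647 probes for systolic overload minus control, diastolic overload minus control and systolic minus diastolic overload, and 1198, 1369 and 333 with median scaling. The filters and the replicate block cannot change a difference. Under the 4 settings with all hearts that can, 80 of 84 member differences kept their direction. Median scaling moved the median of all probes to −0.17 for systolic and −0.18 for diastolic overload minus control, and turned diastolic overload minus control for Ccn1 (−0.028), Spp1 (−0.074) and Thbs2 (−0.070), which relative to that shift stood at 0.16, 0.11 and 0.11. Array weights turned Spp1 (−0.20). With 1 heart of the compared groups left out, 12.0 of 168 differences turned. Their ranges were −0.074 to 1.63 for Spp1 and −0.080 to 0.054 for Thbs2 in systolic overload minus control, −0.15 to 0.92 for Postn, −1.23 to 1.19 for Spp1 and −0.00094 to 0.65 for Thbs4 in diastolic overload minus control, and −0.40 to 1.73 for Spp1 in systolic minus diastolic overload. Among member pairs 0 to 1 correlations passed, the 1 being Ccn1 and Spp1 without diastolic heart 1. These correlation settings were chosen after seeing the data. The causes were not tested.

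Groups share replicate numbers 1 to 4. Whether the numbers pair the hearts cannot be settled from correlations with 4 hearts per group. Of 12 same-numbered pairs 2 correlated above 0.1 (−0.27 to 0.33), and 4 of 12 hearts correlated best with their own number. The highest r of any pair across groups was that of control heart 3 and diastolic heart 3 (0.33). With a replicate block 0 probes passed. In systolic minus diastolic overload the members with an unadjusted p under 0.05 were then Ccn2 and Ccn1 (638 of 10234 probes in all). Postn was thus lost and Ccn1 gained. The slide was not tested as a block, since the headers used here name none. Spp1 in diastolic heart 4 and Thbs4 in systolic heart 3 were not detected, so their values there are limited by background.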
